A study of Mus musculus with 7 samples.

Results

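The genes described here are the mouse Hox genes of clusters a to d, taken as every row of the array whose only gene symbol was Hox, a cluster letter and a paralog number from 1 to 13. Of 38 Hox genes listed for this work, 27 had such a row, with 1 row each, out of 13562 genes named on the array. Cluster a had 8 of them (Hoxa2 to Hoxa7, Hoxa9 and Hoxa10), cluster b 8 (Hoxb1 to Hoxb7 and Hoxb9), cluster c 6 (Hoxc5, Hoxc6, Hoxc8, Hoxc9, Hoxc12 and Hoxc13) and cluster d 5 (Hoxd8 to Hoxd11 and Hoxd13). Hoxa11, Hoxa13, Hoxb8, Hoxb13, Hoxc4, Hoxc10, Hoxc11, Hoxd1, Hoxd3, Hoxd4 and Hoxd12 were not analysed here.

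Hox genes encode transcription factors with a homeodomain and lie in 4 clusters, on mouse chromosomes 6 (a), 11 (b), 15 (c) and 2 (d). Their order along a cluster follows where they act along the body axis, low paralog numbers toward the head and high numbers toward the tail and the ends of the limbs. Cultured fibroblasts keep a Hox pattern that records where in the body they came from. In embryonic stem cells (ESCs) the clusters are classic targets of Polycomb complexes, which mark them with methylation of histone H3 at lysine 27, and Utx, a demethylase encoded by Kdm6a on the X chromosome, takes that mark off.

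Expression was measured on 7 arrays, 1 per condition, each from total RNA. V6.5 ESCs were UTX+/Y (WT) or UTX-/Y (KO). V19-OSKM mouse embryonic fibroblasts (MEFs) of both genotypes had either no doxycycline (DOX) or DOX, which switches on OSKM, the 4 factors Oct4, Sox2, Klf4 and Myc used for reprogramming, so both DOX groups and both groups without DOX carry the inducible factors. The last array held fibroblasts generated from Nanog-/- ESCs and transduced with OSKM lentivirus for 8 days. The labels do not say whether the KO lines were single clones, how many embryos gave the MEFs or how long DOX was present, and they name the same growth medium for all 7 samples.

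All values are the deposited log2 values, and every difference is on the log2 scale. A gene was counted as higher or lower in a comparison when the 2 arrays differed by 2-fold or more (1 on this scale) and the higher value exceeded a floor of 7.34, the 40th percentile of the whole table. Each condition was measured on 1 array, so the differences carry no test and no estimate of replicate spread, and this small number of arrays limits their precision. Where the lower value lay under the floor, a fold is given as a lower bound with that side set to the floor. Counts at 2-fold use the deposited values, so a counted gene can have a lower bound under 2-fold. Counts of Hox genes are read against the share of all genes past the same threshold. Medians over all Hox genes include those under the floor, whereas medians over all genes tested do not. Levels are compared between arrays for the same gene and not between genes.

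Kdm6a was lower on each array labelled KO, at 7.97 against 9.12 (ESCs), 6.32 against 8.22 (no DOX) and 7.57 against 8.93 (DOX). Where the deletion lies relative to its probes was not analysed here. The DOX label of the KO MEFs was not borne out by Pou5f1, which encodes the induced factor Oct4. Pou5f1 read 8.19 without and 12.59 with DOX in WT MEFs, but 11.26 in the library labelled KO without DOX and 5.12 in the one labelled KO with DOX. Both libraries are therefore named by their labels, and a direction involving either one is a direction between labels. All 9 ESC markers with a row exceeded the floor in both ESC libraries. All 12 fibroblast markers did so on 4 of the 5 fibroblast arrays, and 7 of 12 in WT MEFs with DOX. The 6 Utx arrays had medians between 7.68 and 7.84, below the 8.55 of the Nanog KO array.

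The number of Hox genes above the floor was smallest in ESCs and largest on the Nanog KO array. WT MEFs without DOX had 11 of 27 Hox genes above the floor, WT MEFs with DOX 7, the library labelled KO without DOX 3 and the one labelled KO with DOX 8. Each ESC library had 2. The Nanog KO array had 17, and 10 once the array medians were aligned. Over all named genes the share above the floor was 61.0% in WT ESCs, 63.1% in WT MEFs without DOX and 76.8% on the Nanog KO array. In all, 21 of 27 Hox genes exceeded the floor on at least 1 array and 16 on at least 1 Utx array. Hoxa3, Hoxb5, Hoxb6, Hoxb7, Hoxd10 and Hoxd13 did so on none, so their differences are of values under the floor.

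**Figure D1:**
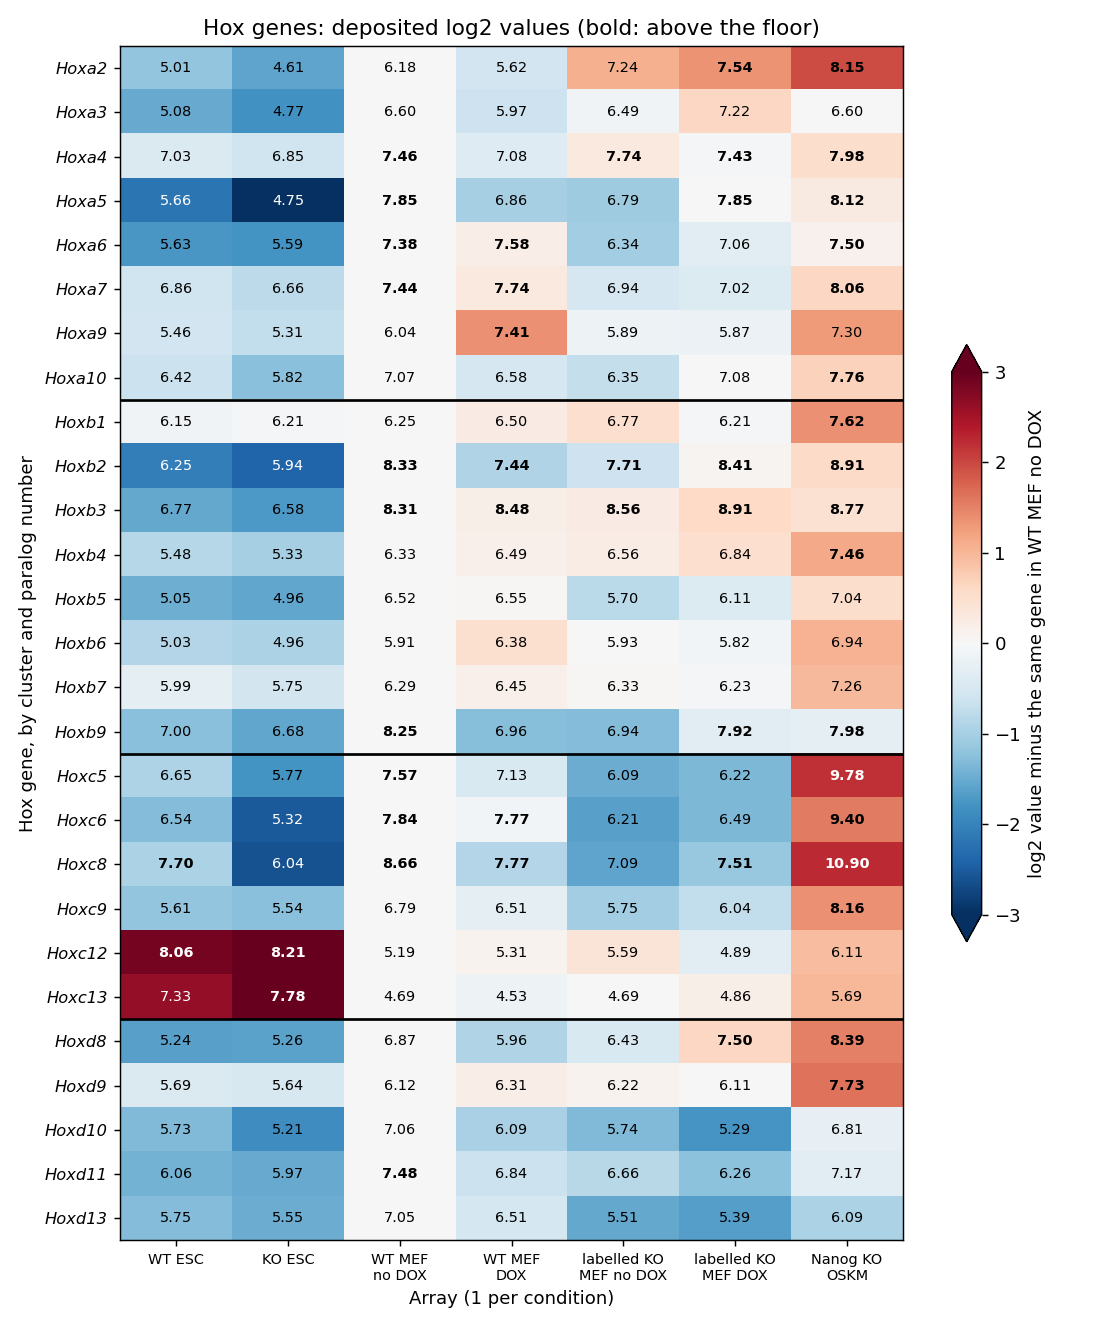
Deposited log2 values of the 27 Hox genes (rows, by cluster and paralog number) on the 7 arrays (columns), printed in each cell and bold above the floor of 7.34. Colour gives the log2 value minus the value of the same gene in WT MEFs without DOX, and Hoxc12 and Hoxc13 are the 2 genes whose ESC values exceed those of all fibroblast arrays.

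The classes of paralog number divided these counts unevenly among the MEF libraries. In WT MEFs without DOX, 3 of 7 genes of numbers 1 to 4 exceeded the floor, 6 of 10 of numbers 5 to 8 and 2 of 10 of numbers 9 to 13. The library labelled KO without DOX gave 3, 0 and 0, and the 3 genes were Hoxa4, Hoxb2 and Hoxb3. The one labelled KO with DOX gave 4, 3 and 1, and WT MEFs with DOX 2, 4 and 1. Both libraries labelled KO thus held at least as many genes of the head-ward class above the floor as the WT library without DOX, and fewer of the middle class.

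WT ESCs and WT MEFs without DOX were compared to place the Hox pattern of the fibroblasts against pluripotent cells. Of 12 Hox genes above the floor on either array, 7 were lower in ESCs by at least 2-fold and 1 was higher, against 19.8% of 9673 genes lower and 14.5% higher. The median over all 27 Hox genes was -1.18, against 0.01 over all genes tested. All 17 genes of numbers 1 to 8 had a negative difference, with medians of -1.18 for numbers 1 to 4 and -1.13 for numbers 5 to 8.

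Hoxa5, which acts in the lung and the neck region, read 5.66 in WT ESCs and 7.85 in WT MEFs, at least 1.43-fold lower. Hoxb2 and Hoxb3, hindbrain genes, read 6.25 against 8.33 and 6.77 against 8.31, at least 1.99-fold and 1.95-fold lower. Hoxb9, a gene of the thoracic ribs, was lower by 1.25 from 8.25 in MEFs, at least 1.87-fold. Hoxa6, Hoxc6 and Hoxd11 were also lower, by 1.75, 1.30 and 1.42, at least 1.03-fold, 1.42-fold and 1.10-fold. All 7 genes lay under the floor in ESCs and above it in MEFs, and none had a lower bound of 2-fold. Fewer cells with a transcript cannot be told apart from less RNA per cell in such bulk samples. Hoxa4, Hoxa7, Hoxc5 and Hoxc8 differed by -0.96 to -0.42, within 2-fold.

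The end of cluster c went the other way. Hoxc12 read 8.06 and 8.21 in WT and KO ESCs, against 5.19 and 5.31 in WT MEFs without and with DOX, 5.59 and 4.89 in the libraries labelled KO without and with DOX, and 6.11 on the Nanog KO array. Hoxc13, its neighbour at the end of the cluster and a gene needed for hair and nails, read 7.33 and 7.78 in the ESCs, against 4.69, 4.53, 4.69, 4.86 and 5.69 on the same fibroblast arrays in that order. For both genes the ESC values lay above all 5 fibroblast values. Hoxc12 was at least 1.65-fold higher in WT ESCs than in WT MEFs without DOX. In WT ESCs Hoxc13 lay just under the floor and was not counted, although the deposited values differed by 2.64. No other Hox gene read higher in WT ESCs than in WT MEFs without DOX.

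The KO arrays as labelled gave a like comparison with fewer genes above the floor. KO ESCs had 2 of 5 Hox genes lower and 2 higher by at least 2-fold than the library labelled KO without DOX, against 17.1% and 18.7% of 9563 genes. The lower ones were Hoxb2, at -1.77, and Hoxb3, at -1.98. The higher ones were Hoxc12, at 2.62, and Hoxc13, at 3.09. Over all 27 Hox genes the median was -0.68, against 0.14 over all genes tested, and 24 had a negative difference.

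**Figure D2:**
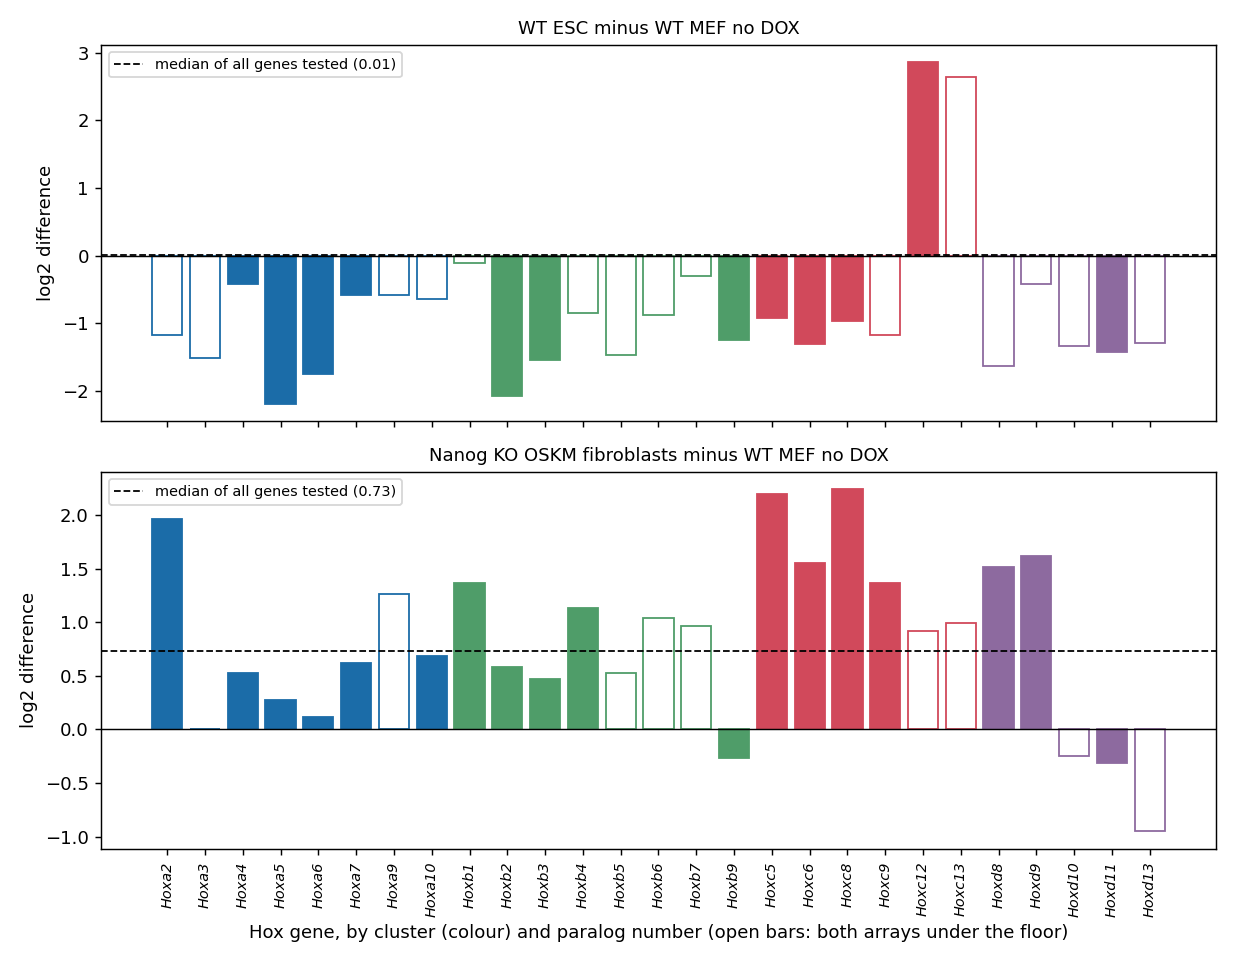
Log2 differences of each Hox gene (bars, coloured by cluster) for WT ESCs (top) and the Nanog KO fibroblasts (bottom), both against WT MEFs without DOX. Filled bars have at least 1 array above the floor, and the dashed line is the median of all genes tested, 0.01 at the top and 0.73 at the bottom.

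Between the genotypes, as labelled, the genes in the middle of cluster c were lower on the KO array in all 3 contexts, which share no array. Hoxc6, which acts in the thorax and mammary gland, had WT and KO values of 6.54 and 5.32 for ESCs, 7.84 and 6.21 for MEFs without DOX, and 7.77 and 6.49 for those with DOX, beside 9.40 on the Nanog KO array. For Hoxc5 these values were 6.65 and 5.77, 7.57 and 6.09, and 7.13 and 6.22, beside 9.78 on the Nanog KO array. Hoxc8, a gene of the thoracic vertebrae and motor neurons, read 7.70 and 6.04, 8.66 and 7.09, 7.77 and 7.51, and 10.90 in the same order. In each context the KO value of these 3 genes was below the WT value, and the Nanog KO value was the highest of the 7 arrays. That array held the highest value of most Hox genes, and its median gene lay 0.73 above WT MEFs without DOX. A negative sign in all 3 contexts was shared by Hoxa6, Hoxa7, Hoxa9, Hoxb5, Hoxc9, Hoxd10, Hoxd11 and Hoxd13. In ESCs 23 of 27 Hox genes had a negative difference. The share of all genes lower in all 3 contexts was not computed.

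Not all of those differences passed the threshold. In ESCs Hoxc8 was counted, at -1.66 and at least 1.28-fold lower, while Hoxc5 and Hoxc6 lay under the floor in both libraries. In MEFs without DOX all 3 were counted, Hoxc5 at -1.48, Hoxc6 at -1.63 and Hoxc8 at -1.57, with Hoxc8 at least 2.49-fold lower. With DOX Hoxc6 was counted, at -1.29 and at least 1.35-fold lower, whereas Hoxc8 differed by -0.26 and Hoxc5, at -0.90, lay under the floor in both libraries. Hoxc9 lay under the floor on all 6 Utx arrays and differed by -0.07, -1.04 and -0.47.

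The DOX label does not decide the order of Hoxc6 and Hoxc5. Over the 4 MEF arrays Hoxc6 read 7.77 and 7.84 in WT and 6.21 and 6.49 in the libraries labelled KO, so the pairs were 1.29 apart. Hoxc5 read 7.13 and 7.57 against 6.09 and 6.22, a gap of 0.90. Hoxa2 was the reverse, at 5.62 and 6.18 in WT and 7.24 and 7.54 in the libraries labelled KO, a gap of 1.06. With the means of the pairs 2-fold or more apart and no overlap, 2 of 14 Hox genes were lower and 1 was higher, against 2.43% and 2.66% of 10039 genes. Hoxc8 kept the pairs apart by 0.26 with means less than 2-fold apart. Among the tested genes so did Hoxa6, Hoxa7, Hoxa9 and Hoxd11, lower in the libraries labelled KO, by 0.32, 0.42, 0.14 and 0.18. Hoxb3, higher there, did so by 0.08. An order that holds across the DOX label is thus not particular to cluster c, and its share over all genes was not computed. This grouping of arrays was chosen after the values were seen.

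The Hox genes were then counted in each context. In MEFs without DOX, 6 of 11 Hox genes were 2-fold or more lower in the library labelled KO and 0 were higher, against 9.53% and 5.04% of 9253 genes. Next to the 3 genes of cluster c these were Hoxa5 at -1.06, Hoxa6 at -1.05 and Hoxb9 at -1.31, and with array medians aligned Hoxa5 and Hoxa6 differed by less than 2-fold. All 6 lay under the floor in the library labelled KO. Their lower bounds were 1.43-fold for Hoxa5, 1.03 for Hoxa6, 1.87 for Hoxb9, 1.18 for Hoxc5 and 1.42 for Hoxc6. Only that of Hoxc8, 2.49, was past 2-fold. The median was -0.51 over all 27 Hox genes and -0.11 over all genes tested. By class it was 0.25 for numbers 1 to 4, -0.93 for numbers 5 to 8 and -0.77 for numbers 9 to 13. By cluster it was -0.33 for a, 0.03 for b, -1.26 for c and -0.82 for d. Macrophage markers were lower in the same library, with 8 of 8 lower and a median level of 10.11 on the WT array and 6.35 on the other. Of 4 epithelial markers tested 3 were higher there, with a median of 1.87. Of 2 endothelial markers with a row, Tek was higher there by 3.44. The other, Pecam1, lay under the floor on both arrays, at 5.36 in the library labelled KO and 5.24 in WT. Tek also read 10.01 in WT MEFs with DOX and 12.01 on the Nanog KO array. The part of these markers in the result was not tested.

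In ESCs 1 of 3 Hox genes above the floor was lower in KO and 0 were higher, against 3.18% and 0.651% of 8598 genes. Of the 27 Hox genes 23 had a negative difference, with a median of -0.19, and 24 of the 27 lay under the floor in both libraries. The 3 above the floor in either library had a median of 0.15. Among all genes above the floor 38.5% had a negative difference, a set unlike the 27 Hox genes. Hoxc12 and Hoxc13 differed by 0.15 and 0.46. Of 12 fibroblast markers, 8 were above the floor in WT ESCs and 2 in KO ESCs, and 6 of the 8 tested were at least 2-fold lower in KO, with a median difference of -2.46. Among them were Prrx1, a mesenchymal homeobox gene, at 9.09 in WT and 5.88 in KO, and Col1a1, a collagen gene, at 10.30 and 7.59. The part of these fibroblast transcripts in the Hoxc8 difference was not tested.

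With DOX, 2 of 12 Hox genes were 2-fold or more higher in the library labelled KO and 2 were lower, against 14.3% and 12.1% of 9572 genes, shares close to those of the Hox genes. The higher ones were Hoxa2 at 1.92 and Hoxd8 at 1.53, and the lower ones Hoxa9 at -1.54 and Hoxc6 at -1.29. By class the median was 0.44 for numbers 1 to 4, -0.47 for numbers 5 to 8 and -0.45 for numbers 9 to 13, against 0.00 over all genes tested. The order of the classes was thus the one seen without DOX, on other arrays, although the last 2 medians lay close together. In ESCs the order differed, at -0.19, -0.22 and -0.12. Fibroblast markers differed by a median of 4.33 between these libraries, with 10 of 12 higher in the one labelled KO, and all 10 epithelial markers were lower there. Their part in the Hox differences was not tested.

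**Figure D3:**
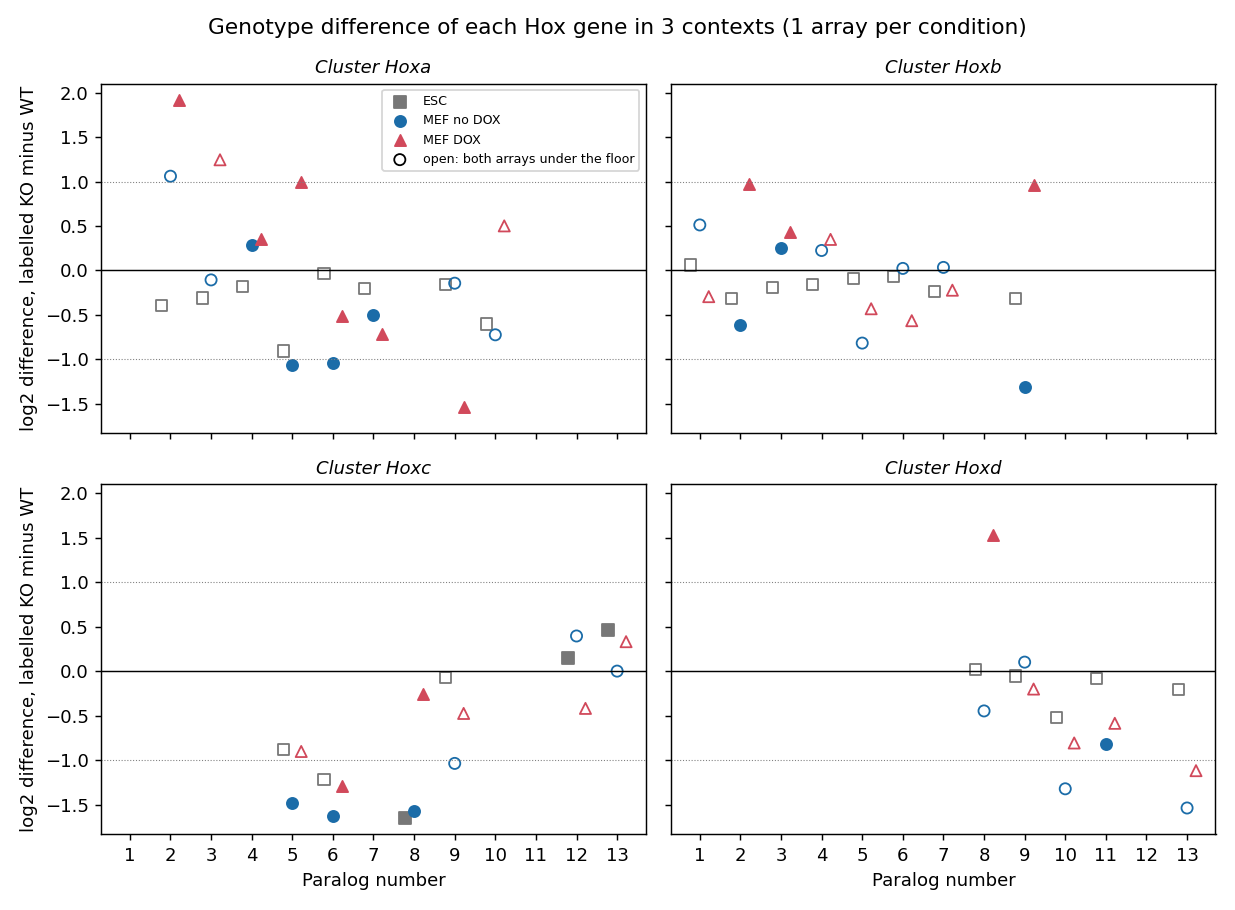
Log2 difference between the array labelled KO and the WT array for each Hox gene, by paralog number (x axis) and cluster (panels), in ESCs (squares), MEFs without DOX (circles) and MEFs with DOX (triangles), with open symbols where both arrays lay under the floor. Hoxc5, Hoxc6 and Hoxc8 are among the genes below 0 in all 3 contexts, and Hoxa2 is among those above 0 in both MEF contexts.

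Hoxa2 and the far end of cluster d had differences of opposite sign between the genotypes in MEFs, and most of these values lay under the floor. Hoxa2, which patterns the hindbrain and the second pharyngeal arch, read 5.01 and 4.61 in WT and KO ESCs and 8.15 on the Nanog KO array, beside the 4 MEF values given above. In MEFs without DOX it differed by 1.06 with both arrays under the floor, and with DOX it was at least 1.15-fold higher in the library labelled KO. Hoxd10, Hoxd11 and Hoxd13, genes of the limb and the tail end, differed by -1.32, -0.82 and -1.54 without DOX and by -0.81, -0.59 and -1.12 with DOX. Hoxd13 read 7.05 and 6.51 in WT MEFs without and with DOX, and 5.51 and 5.39 in the libraries labelled KO. Of these 3 genes only Hoxd11, at 7.48 in WT MEFs without DOX, exceeded the floor on any of the 7 arrays.

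Promoter sequence was at hand for 14 of the 27 Hox genes, as the 250 bases before each RefSeq gene start in GRCm38.p6, in 16 windows. Hoxa2, Hoxa5 and Hoxa9 are shown because they lie in the same cluster and differed in 3 ways. Hoxa2 was higher in the libraries labelled KO, Hoxa9 was higher with DOX in WT MEFs, and Hoxa5 differed with DOX in opposite directions in the 2 genotypes. All 3 are on the minus strand, at chr6:52164832-52165081, chr6:52204588-52204837 and chr6:52227371-52227620. They are written 5′ to 3′ in the direction of the gene, in lower case, with capitals marking CG dinucleotides, the sites of DNA methylation.
Hoxa2: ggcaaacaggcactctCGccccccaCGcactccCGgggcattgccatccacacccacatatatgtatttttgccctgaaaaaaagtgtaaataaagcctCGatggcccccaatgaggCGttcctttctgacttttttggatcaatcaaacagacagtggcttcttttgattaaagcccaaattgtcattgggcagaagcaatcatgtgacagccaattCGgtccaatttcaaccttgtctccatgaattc
Hoxa5: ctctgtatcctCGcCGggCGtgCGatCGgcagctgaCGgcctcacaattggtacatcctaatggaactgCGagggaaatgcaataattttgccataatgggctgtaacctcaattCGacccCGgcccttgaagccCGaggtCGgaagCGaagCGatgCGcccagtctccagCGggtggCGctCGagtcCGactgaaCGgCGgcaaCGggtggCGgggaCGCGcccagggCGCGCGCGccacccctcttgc
Hoxa9: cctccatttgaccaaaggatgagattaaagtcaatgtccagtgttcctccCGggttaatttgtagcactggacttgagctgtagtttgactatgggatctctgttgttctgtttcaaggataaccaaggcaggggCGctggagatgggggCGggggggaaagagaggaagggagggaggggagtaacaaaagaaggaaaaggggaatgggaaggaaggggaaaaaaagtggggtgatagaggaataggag
The Hoxa2 window held 6 CG dinucleotides, the Hoxa5 window 28 and the Hoxa9 window 3. The 16 Hox windows held 2 to 31, with a median of 13.5, against a median of 6 over 32851 windows in the table. On both strands, the octamer ATGCAAAT, the site of Oct4, was in 0 of 16 Hox windows and in 1.6% of all windows. TGATNNAT, the site of Hox proteins with their partner Pbx, was in 3 of 16, those of Hoxa2, Hoxb1 and 1 of 2 windows of Hoxd11, and in 7.68% of all. A match describes letters in these windows and nothing about binding.

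In WT MEFs most Hox genes, like most genes tested, differed by less than 2-fold between the arrays with and without DOX. Of 12 Hox genes above the floor 1 was higher with DOX and 1 was lower, against 11.9% and 13.7% of 9524 genes. These shares are close to those of the Hox genes. On the same arrays 10 of 12 fibroblast markers were lower and 0 higher, with median levels of 11.85 without and 7.75 with DOX. All 8 macrophage markers were lower and all 10 epithelial markers were higher. The median over all 27 Hox genes was -0.27, against 0.00 over all genes tested.

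Hoxa9, a gene of limb and blood cells, read 6.04 without and 7.41 with DOX in WT MEFs, at least 1.05-fold higher, and 5.89 and 5.87 in the libraries labelled KO. It read 7.30 on the Nanog KO array and 5.46 and 5.31 in ESCs, so the WT MEFs with DOX had the highest of the 7 values. Hoxb9 read 8.25 without and 6.96 with DOX in WT MEFs, at least 1.87-fold lower, and 6.94 and 7.92 in the libraries labelled KO. Hoxb3 and Hoxc6 stayed close, at 8.31 and 8.48 and at 7.84 and 7.77 without and with DOX. Hoxa5, Hoxb2 and Hoxc8 differed by -0.99, -0.89 and -0.89, short of 2-fold.

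In the MEFs labelled KO, 2 of 8 Hox genes were 2-fold or more higher with DOX and 0 were lower, against 6.81% and 2.93% of 9119 genes. They were Hoxa5, at 6.79 without and 7.85 with DOX, and Hoxd8, at 6.43 and 7.50. Both lay close to the threshold, at 1.06 and 1.07, and with array medians aligned both differed by less than 2-fold. The median over all 27 Hox genes was 0.27, against 0.13 over all genes tested. All 4 epithelial markers tested were lower on the same array, with a median of -2.18, and all 4 macrophage markers tested were higher, with a median of 1.23, and their part was not tested.

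The DOX differences of the labelled genotypes share no array and were set side by side. Among the 14 Hox genes above the floor on any of the 4 MEF arrays, 9 had opposite signs, against 64.9% of 10039 genes. The difference between the differences, labelled KO minus WT, was 1 or more for 5 Hox genes, against 20.9% of genes, and -1 or less for 1, against 14.5%. The 5 were Hoxb9 at 2.27, Hoxa5 at 2.05, Hoxd8 at 1.98, Hoxb2 at 1.59 and Hoxc8 at 1.32, and the last was Hoxa9 at -1.39. No test of these differences was possible at 1 array each, and they follow the labels of the KO libraries.

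**Figure D4:**
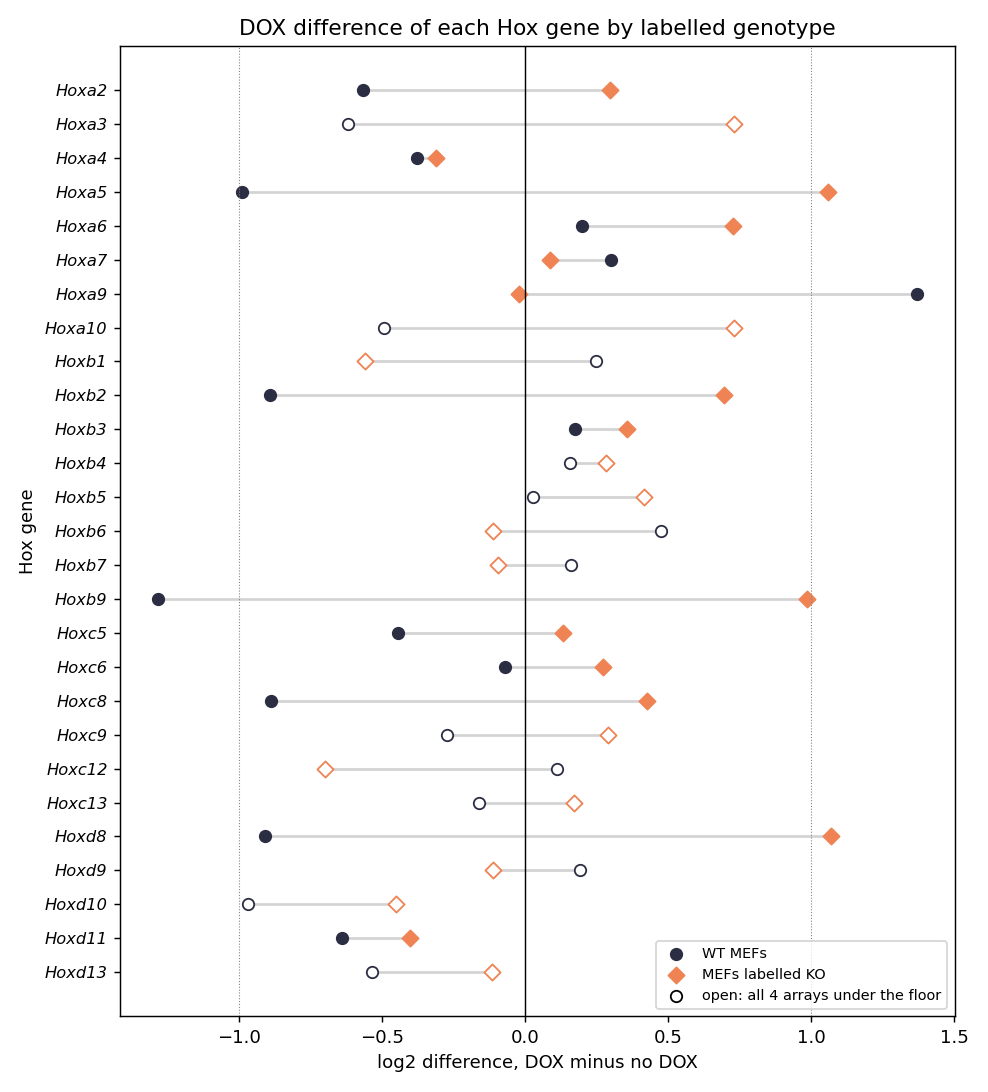
Log2 difference between the arrays with and without DOX for each Hox gene in WT MEFs (circles) and in MEFs labelled KO (diamonds), with open symbols where all 4 arrays lay under the floor. Hoxb9, Hoxa5 and Hoxd8 have the longest lines between the genotypes, with the WT value below 0 and the KO value above it.

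The libraries labelled KO were also set against WT MEFs of the other DOX label. For Hoxc6 the outcome was fixed by the 4 arrays already compared, with pairs 1.29 apart and both WT values above the floor. The call of Hoxa2 against WT MEFs without DOX was fixed too, by pairs 1.06 apart and a KO value of 7.54. For Hoxc5, Hoxc8, Hoxd11, Hoxa6 and Hoxa9 the direction was fixed, since their pairs did not overlap, but the call was not. These genes thus add no separate evidence on direction. The library labelled KO with DOX against WT MEFs without DOX had 4 of 13 Hox genes lower and 1 higher, against 2.63% and 1.88% of 9024 genes. These were Hoxc5 at -1.35, Hoxc6 at -1.36, Hoxc8 at -1.14 and Hoxd11 at -1.23, with Hoxa2 higher at 1.36. On the same arrays 0 of 12 fibroblast markers differed by 2-fold, with a median difference of -0.06, and all 8 macrophage markers were lower. The library labelled KO without DOX against WT MEFs with DOX had 3 of 8 Hox genes lower, Hoxa6 at -1.24, Hoxa9 at -1.51 and Hoxc6 at -1.56, and 0 higher, against 13.7% and 10.6% of 9431 genes. On those arrays 10 of 12 fibroblast markers were higher, with a median difference of 3.95, and 10 of 10 epithelial markers were lower, and their part was not tested.

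The array of the Nanog KO fibroblasts was shifted as a whole, and held the highest of the 7 values for 17 of 27 Hox genes, of all 4 clusters. The share of all genes with their highest value there was not computed. Of all genes tested 14.8% read lower there than in WT MEFs without DOX, and 16.9% lower than in those with DOX. The median gene differed by 0.73 from WT MEFs without DOX and by 0.76 from WT MEFs with DOX, so differences are given with this shift beside them. Of 18 Hox genes 9 exceeded WT MEFs without DOX by at least 2-fold and 0 were lower, against 35.1% and 3.72% of 10740 genes. Against WT MEFs with DOX, which carry the same factors by another route, 12 of 18 were higher and 0 lower, against 37.2% and 5.53% of 10833 genes. On those arrays 11 of 12 fibroblast markers were higher than in WT MEFs with DOX, with a median difference of 4.82, 7 of 7 macrophage markers tested were higher and 10 of 10 epithelial markers were lower. Against WT MEFs without DOX 4 fibroblast markers were higher and 1 lower, and the part of these cell types was not tested. The cell line and the delivery of the factors differ between these arrays as well and cannot be told apart from the Nanog genotype.

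Counted 2-fold from the shift, a choice made after the values were seen, 3 of 18 Hox genes were higher and 1 was lower than in WT MEFs without DOX. All genes gave 9.8% and 9.43%. The 3 were Hoxc8, 2.24 as deposited and 1.51 above the shift, Hoxc5, 2.20 and 1.47 above it, and Hoxa2, 1.96 and 1.23 above it, and the lower one was Hoxd11, at -0.31 as deposited. Against WT MEFs with DOX 4 of 18 were higher, the same 3 and Hoxd8, against 13.1% of genes, and 0 lower, against 12.1%. Against WT MEFs with DOX Hoxc8 differed by 3.13 as deposited and by 2.38 above the shift. By cluster, the median difference from WT MEFs without DOX was 0.57 for a, 0.77 for b, 1.46 for c and -0.25 for d, as deposited, so that those of a and d lay below the shift of 0.73, and that of a was below 0 with array medians aligned.

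The genes that work with or control the Hox genes were described from lists of known members. Of 8 Hox cofactors with a row, Meis1, a homeodomain partner of Hox proteins, was the only one 2-fold apart between WT MEFs with and without DOX, at 7.47 and 8.97. This is 1 of 7 tested, near the 13.7% of all genes lower there. With DOX, Meis1 read 9.29 in the library labelled KO and 7.47 in WT MEFs, Meis2 10.43 and 8.91, and the other 5 tested cofactors differed by less than 2-fold. These 2 of 7 stand beside 14.3% of all genes higher and 12.1% lower. Against WT MEFs without DOX, WT ESCs had Meis1 lower by 2.59, Pbx3 lower by 2.07, Meis2 lower by 1.23 and Pbx4 higher by 1.03. They are 3 of 7 lower and 1 higher, against 19.8% and 14.5% of all genes. Of the 4 Cdx and ParaHox genes with a row, 2 exceeded the floor on some array, and Cdx1, an activator of Hox genes, was higher in WT ESCs than in WT MEFs without DOX, at 8.12 and 6.93. It read 8.32 on the Nanog KO array. The 1 gene of the list tested in KO ESCs differed by less than 2-fold from WT ESCs, at -0.80, and from the library labelled KO without DOX, at -0.41.

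Of 25 Polycomb subunit genes tested, 10 were at least 2-fold higher in WT ESCs than in WT MEFs without DOX, 1 was lower and the rest were within 2-fold, against 14.5% and 19.8% of all genes. The largest differences were those of Cbx7 at 9.88 and 6.27, Mtf2 at 11.54 and 8.55 and Phc1 at 10.83 and 7.92, and the lower gene was Yaf2, at 7.75 and 9.16. Between the genotypes 0 of 24 differed by 2-fold in ESCs, and in MEFs without DOX 1 did, Phc1 at 8.94 in the library labelled KO and 7.92 in WT. With DOX 2 of 25 did, Bmi1 at 8.50 in the library labelled KO and 7.13 in WT, and Pcgf5 at 6.82 and 8.49. The shares of all genes higher and lower were 0.651% and 3.18% in ESCs and 5.04% and 9.53% in MEFs without DOX. With DOX they were 14.3% and 12.1%. Of the 14 genes of the Trithorax and UTX complexes, Kdm6a was the only one lower in the KO library in each context, and Dpy30 was the only one higher, in MEFs without DOX.

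Homeobox and T-box genes outside the clusters were set beside the Hox genes. With DOX in WT MEFs, 10 of 18 above the floor were lower by at least 2-fold and 0 were higher. All genes gave 13.7% and 11.9%. The median of the 18 was -1.07, against -0.41 for the 12 Hox genes tested and 0.00 for all genes. Of the 10, Meox2, a somite gene, read 8.29 without and 5.68 with DOX, and Prrx2, a mesenchymal gene, 10.56 and 8.21. Zic1, a neural and somite gene, read 9.12 and 6.85, and Tbx15, a skeletal and skin gene, 9.96 and 8.31.  Whether the lists differ was not tested.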

How the data were processed

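The authors deposited log2 values for 7 arrays. Per the submitters' processing notes they used RMA in the Affymetrix Expression Console, a method that removes background, brings arrays to one distribution and merges each probe set. Tool versions, the build, and whether the Nanog KO array was normalized with the rest are not stated there. Depth has no counterpart on arrays. The table held 21811 rows with 0 missing values. Rows were named from the platform annotation: 14894 had 1 symbol, and 925 with several symbols and 5992 unlisted ones were not used. For a gene with several rows (754 of 13562) the row with the highest mean stood. RefSeq (GRCm38.p6) held all 27 Hox gene IDs and gave the promoters.

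Groups came from the labels. For 9 comparisons by label and 2 across labels, the 2 arrays were subtracted per gene and counted at 2-fold above the floor. No test was run. All Hox genes may be named, those past 2-fold with both values, and of other lists at most 4 called genes. Alternatives were aligned medians, quantile normalization, no floor, a floor at the 60th percentile (8.48), 1.5-fold, the mean of rows and rows chosen on 6 arrays. The members and lists were chosen with earlier results of these data known. The counting was tested on simulated data. Python 3.11.15, numpy 2.4.6, pandas 2.3.3 and matplotlib 3.10.9 were used.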

Additional observations from a re-analysis of the deposited data

Results flagged for a closer look

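For 4 Hox genes with a value above the floor on each side, the differences in 2 groups of arrays had opposite signs and lay 1 or more apart. They give 7 entries, since for 3 of the genes the same 4 arrays are read both by genotype and by DOX, and none of these turns was tested, at 1 array per condition. Opposite signs were common: 9 of 14 Hox genes had them between the DOX differences, as did 64.9% of 10039 genes. Hoxd8, at 1.98, and Hoxa9, at -1.39, are not among the 4 because both WT values of Hoxd8 and both labelled KO values of Hoxa9 lay under the floor. Between WT and labelled KO MEFs, the DOX difference of Hoxb9 was -1.28 and 0.99, a difference of 2.27, and that of Hoxa5 was -0.99 and 1.06, a difference of 2.05. For Hoxb2 it was -0.89 and 0.70, a difference of 1.59, and for Hoxc8 -0.89 and 0.43, a difference of 1.32. Taken as labelled KO minus WT, the same 4 arrays gave Hoxb9 -1.31 without and 0.96 with DOX, Hoxa5 -1.06 and 0.99, and Hoxb2 -0.62 and 0.97, with the same differences of 2.27, 2.05 and 1.59. The Pou5f1 values of the libraries labelled KO, 11.26 without and 5.12 with DOX, stand beside these differences, and the part of the labels in them was not tested.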

How the results depend on the processing

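Of the values of the comparisons, 236 held under the alternatives and 69 moved. The medians of both comparisons across DOX labels changed sign, each from near 0 and under 1 scaling. Of the called Hox genes' differences 311 kept their call and 81 lost it, 46 of these under the floor at the 60th percentile. Each Hox gene had 1 row, so the mean over a gene's rows and rows chosen on 6 arrays could change none of the 44 comparison values. No call could be lost under these settings, nor without a floor or at 1.5-fold. Each of these settings therefore adds 56 kept calls by construction, which say nothing about how firm the calls are. Signal over background is the main limit, since most Hox values lie within 1 of the floor or under it. No paired analysis was possible because each group has 1 array.

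With the floor at the 60th percentile, WT ESCs and KO ESCs had 0 Hox genes above it, each MEF library 1 and the Nanog KO array 5. Under that floor WT ESCs against WT MEFs without DOX gave 0 higher and 0 lower, KO ESCs against the library labelled KO without DOX 0 higher and 1 lower, DOX in WT MEFs 0 and 0, and DOX in MEFs labelled KO 0 higher. The genotypes gave 0 lower in ESCs, 1 lower in MEFs without DOX, and 0 higher and 0 lower with DOX. The Nanog KO array gave 4 higher than WT MEFs with DOX and 3 higher than without. The library labelled KO with DOX gave 0 higher and 1 lower than WT MEFs without DOX, and the one labelled KO without DOX 0 lower than WT MEFs with DOX. The pairs of MEF arrays gave 0 higher and 0 lower, and the difference between DOX differences reached 2-fold upward in 1 gene and downward in 0. These floors test fewer genes by construction.

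With aligned medians and with quantile normalization alike, WT ESCs had 2 higher than WT MEFs without DOX, KO ESCs 4 lower than the library labelled KO without DOX, and the library labelled KO without DOX 1 higher than WT MEFs with DOX and 1 higher than those without. DOX in MEFs labelled KO gave 0 higher with aligned medians and 1 with quantile normalization. The Nanog KO array then had 10 above the floor, 4 higher than WT MEFs with DOX, and 3 higher and 2 lower than those without. Its median Hox difference was 0.23 and 0.25 from WT MEFs with DOX and 0.18 and 0.18 from those without, under the 2 scalings in that order. Counted from the median of all genes, a choice made after seeing the data, it had 4 higher, and 3 higher and 1 lower. The median Hox difference of the library labelled KO with DOX from WT MEFs without DOX was 0.0077 with quantile normalization against -0.09, and that of the one labelled KO without DOX from WT MEFs with DOX was 0.012 with aligned medians against -0.13.

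Without a floor, WT ESCs had 2 higher and 14 lower than WT MEFs without DOX, KO ESCs 8 lower than the library labelled KO without DOX, and KO ESCs 2 lower than WT ESCs. The library labelled KO without DOX had 1 higher than WT MEFs without DOX, and 1 higher and 5 lower than those with DOX. The pairs of MEF arrays gave 4 lower. At 1.5-fold, DOX gave 5 lower in WT MEFs and 4 higher in those labelled KO, the genotypes 5 higher with DOX, the pairs 7 lower, the library labelled KO with DOX 3 higher than WT MEFs without DOX, and the one labelled KO without DOX 1 higher and 5 lower than WT MEFs with DOX. Where no construction is named, the cause was not tested.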

Other observations

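Genes of the retinoic acid pathway, a signal known to switch on Hox genes in the embryo, differed between the same arrays. Of 11 tested, 8 were 2-fold or more lower in WT ESCs than in WT MEFs without DOX and 0 higher. All genes gave 19.8% and 14.5%. The 8 were led by Crabp2, a retinoic acid carrier, at 7.43 and 11.67, and Aldh1a3, an enzyme that makes retinoic acid, at 7.06 and 10.05. Crabp1 was lower by 2.26 from 12.26. In WT MEFs 2 of 12 were lower with DOX and 1 was higher. All genes gave 13.7% and 11.9%, shares close to those of the list. Crabp1 read 12.26 without and 7.53 with DOX, Aldh1a2, another enzyme of synthesis, 7.66 and 6.10, and Aldh1a1 5.84 and 8.58. Between the genotypes in MEFs without DOX, Aldh1a1 was higher in the library labelled KO, at 7.68 and 5.84, and Aldh1a3 lower, at 7.92 and 10.05. These were the called genes of 12 tested, and all genes gave 5.04% higher and 9.53% lower. Against WT MEFs without DOX the Nanog KO array had 6 of 14 higher and 2 lower. All genes gave 35.1% and 3.72%, so the higher count lies near its share. It had Stra6, the retinol transporter, at 10.23, against 6.40 in WT MEFs without DOX, and Aldh1a1 at 9.08 against 5.84, while Aldh1a3 was lower, at 8.13 against 10.05, and Rdh10, at -1.02, beside the shift of that array of 0.73.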
